A study of Mus musculus with 2 samples.

Results

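Immune checkpoint ligands are proteins on tumor, stromal and myeloid cells that engage inhibitory or costimulatory receptors of lymphocytes and phagocytes. The genes described here are 10 of the 32285 genes listed in the count matrices: Cd274, Pdcd1lg2, Cd80, Cd86, Lgals9, Nectin2, Pvr, Cd47, Sirpa and Ido1. They were picked by gene symbol, and each symbol was found in both matrices. The symbol rule itself uses no measured value, but the list was chosen with earlier results of these data known. The question was which class of cells held the transcripts of each ligand.

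Single cells were measured from omental tumors of C57BL/6 mice that had received an intraperitoneal graft of KPCA cells. KPCA is a syngeneic mouse ovarian cancer line, recorded as derived from Fallopian tube epithelial cells, with mutant Trp53 and overexpressed Ccne1 and Akt2. The KPCA.FSTKO tumors came from KPCA cells with a knockout of Fst, which encodes the activin antagonist follistatin. The KPCA.FSTKO_hFSTL3 tumors came from the same knockout cells carrying a plasmid for human FSTL3, selected with geneticin as 1 stable clone. Both groups of tumors therefore arose from cells without Fst, no drug was given, and the study used female mice aged between 12 and 16 weeks. Each group was 1 library made from 4 pooled tumors at day 10 after grafting, so there was no replicate and no test was made. A difference between the libraries cannot be told apart from a difference between pools of mice, dissociations or library preparations.

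PD-L1 (Cd274) and PD-L2 (Pdcd1lg2) bind PD-1 on T cells and restrain them, and PD-L1 is known to be induced by interferon gamma. CD80 and CD86 bind the activating receptor CD28 and its inhibitory counterpart CTLA-4. Galectin-9 (Lgals9) binds TIM-3, and nectin-2 (Nectin2) and the poliovirus receptor (Pvr) bind TIGIT and the activating receptor CD226. The poliovirus receptor also binds CD96. CD47 is a broadly present signal that stops phagocytosis through SIRP alpha (Sirpa) on myeloid cells, and Ido1 encodes an enzyme that degrades tryptophan.

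The genes for PD-L1 and PD-L2 are neighbours on mouse chromosome 19. In the GRCm38 build, Cd274 (ENSMUSG00000016496) lies at chr19:29367455-29388095 and Pdcd1lg2 (ENSMUSG00000016498) at chr19:29410919-29471161, both on the plus strand with 22823 bases between them. Nectin2 (ENSMUSG00000062300, chr7:19716644-19750483) and Pvr (ENSMUSG00000040511, chr7:19903578-19921160) are on the minus strand of chromosome 7 with 153094 bases between them. Lgals9 (ENSMUSG00000001123) lies at chr11:78962974-78984946 on the minus strand. RefSeq promoter windows of build GRCm38.p6, each running from 250 bases before to 50 bases after a transcription start, matched 6 of the 10 genes. The 250 bases before the start are given below for the 2 neighbouring PD-1 ligand genes, and for Lgals9 and Nectin2, whose levels were spread over stromal, endothelial and cancer classes. Sequences run 5′ to 3′ on the strand of the gene, and capitals mark the motif matches described after them.
Cd274 (chr19:29367188-29367437, plus strand): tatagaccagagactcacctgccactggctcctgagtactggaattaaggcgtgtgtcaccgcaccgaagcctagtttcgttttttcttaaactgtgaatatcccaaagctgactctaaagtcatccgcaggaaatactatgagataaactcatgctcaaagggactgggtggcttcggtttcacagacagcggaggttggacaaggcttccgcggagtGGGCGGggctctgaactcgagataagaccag
Pdcd1lg2 (chr19:29410669-29410918, plus strand): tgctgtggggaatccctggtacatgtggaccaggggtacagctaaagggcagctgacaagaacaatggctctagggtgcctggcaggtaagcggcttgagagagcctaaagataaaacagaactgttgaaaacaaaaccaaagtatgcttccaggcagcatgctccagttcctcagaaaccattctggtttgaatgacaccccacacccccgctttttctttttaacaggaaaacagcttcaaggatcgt
Lgals9 (chr11:78984925-78985174, minus strand): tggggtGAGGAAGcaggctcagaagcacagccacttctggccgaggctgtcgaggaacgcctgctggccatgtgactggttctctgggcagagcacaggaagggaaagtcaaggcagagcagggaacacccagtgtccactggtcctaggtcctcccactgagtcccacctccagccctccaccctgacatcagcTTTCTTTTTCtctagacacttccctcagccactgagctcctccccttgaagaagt
Nectin2 (chr7:19749574-19749823, minus strand): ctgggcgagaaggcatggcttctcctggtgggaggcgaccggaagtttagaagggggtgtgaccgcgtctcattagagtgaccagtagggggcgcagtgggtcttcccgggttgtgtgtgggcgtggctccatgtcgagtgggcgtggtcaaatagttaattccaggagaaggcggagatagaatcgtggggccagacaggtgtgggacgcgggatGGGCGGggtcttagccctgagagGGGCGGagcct

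6 short motifs were searched on both strands of the whole windows of 300 bases. Cd274 held 1 GC box (GGGCGG, found in 35.7% of 32851 promoter windows), and Nectin2 held 3, of which the last lies after the start. Lgals9 held 2 matches to an interferon-response type motif (GAAA, any 2 bases, then GAAA, found in 3.44% of windows), the second of them after the start, and 1 match to a PU.1-type motif (GAGGAAG, found in 13.6%). Pdcd1lg2 held none of the 6, which also included an interferon-gamma site type motif (TTCNNNGAA, 8.30% of windows), an NF-kB-type motif (GGGA, any 2 bases, then TTCC, 1.47%) and the TATA box (TATAAA, 13.6%). The GC content of the windows was 52.7% for Cd274, 46% for Pdcd1lg2, 58% for Lgals9 and 62.7% for Nectin2, against a median of 52.7% over all windows. A match is a description of letters and was not tested as a binding site.

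After the filters of the study, the KPCA.FSTKO library held 6777 barcodes with a median of 17253 UMIs, and the KPCA.FSTKO_hFSTL3 library 4041 barcodes with a median of 15071 UMIs. The median mitochondrial share was 3.54% and 10.7%, respectively, and 10 barcode sequences occurred in both libraries. Barcodes were gated by the UMIs of marker genes, and a class name below means only that its markers were passed. In KPCA.FSTKO, 3867 barcodes (57.1%) passed as cancer, with all 14 cancer markers found, 416 as stromal (fibroblast, myofibroblast, mesothelial or pericyte), 81 as endothelial, 823 (12.1%) as macrophage or monocyte-macrophage, 114 as neutrophil, 21 as conventional dendritic cell and 79 as T and NK. In KPCA.FSTKO_hFSTL3, 312 (7.72%) passed as cancer, 73 as stromal, 18 as endothelial, 141 (3.49%) as macrophage or monocyte-macrophage, 2 as neutrophil and 14 as T and NK. The KPCA.FSTKO_hFSTL3 library stood apart: 3096 of its barcodes (76.6%) carried the markers of at least 3 unrelated lineages and were set aside as a mixed profile, against 135 (1.99%) in KPCA.FSTKO. Ligand levels are therefore given within each library, and those of the mixed profile separately. As a check of the labels, Fst was found in the cancer class of both libraries at 5.08 and 8.51 CPM and in the stromal class at 111 and 164 CPM. A 3′ count does not tell a deleted from an intact Fst transcript, and the human FSTL3 transcript was not analysed here.

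**Figure D1:**
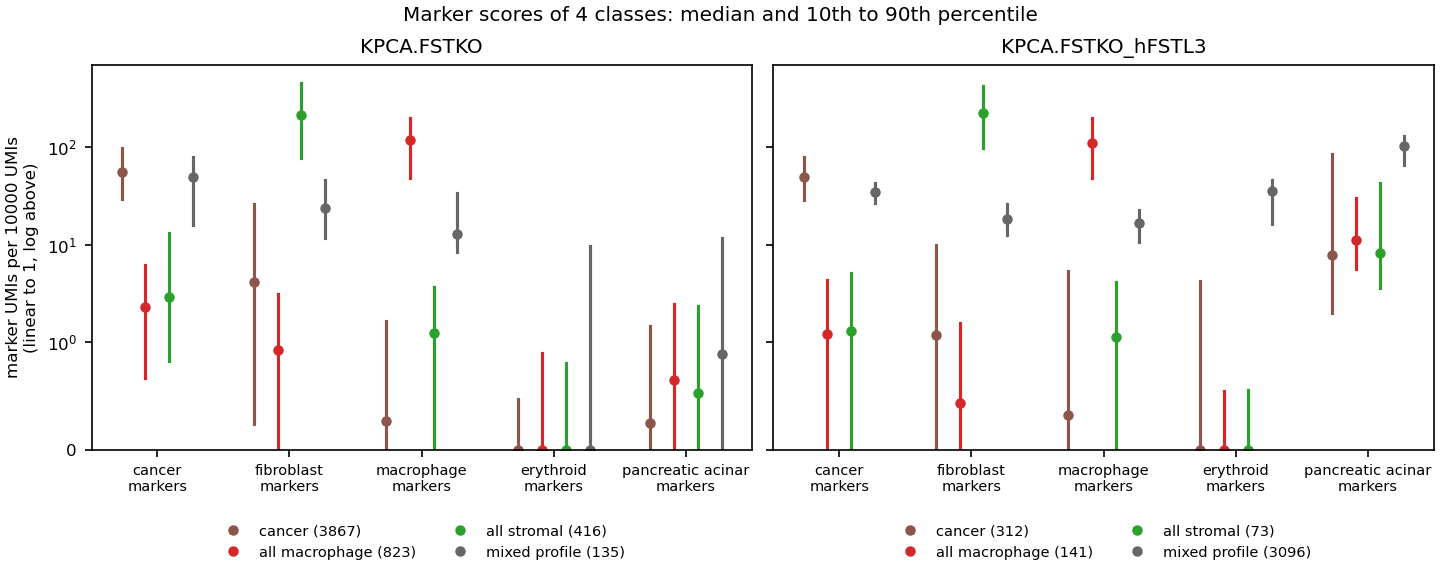
Marker scores (marker UMIs per 10000 UMIs of a barcode, vertical axis, linear up to 1 and logarithmic above) for 5 marker lists in 4 classes of each library, with points for the median and bars from the 10th to the 90th percentile. In KPCA.FSTKO_hFSTL3, the 3096 mixed-profile barcodes had median scores of 35.0 for cancer, 18.4 for fibroblast and 16.6 for macrophage markers. Their medians were 35.6 for erythroid and 103 for pancreatic acinar markers. The kept classes were gated on these scores, so each is high for its own list by construction. Their median acinar scores were 7.88 (cancer), 11.1 (macrophage) and 8.26 (stromal), against 0.243, 0.648 and 0.522 in KPCA.FSTKO.

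The level of a ligand in a class is given as CPM, the summed UMIs of the gene over all UMIs of the class, in counts per 1000000. Brackets hold an exact 95% interval that covers counting error only, not the variation between mice. Because reads were taken from the 3′ end and not scaled by length, levels are compared between classes or libraries, never between genes.

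**Figure D2:**
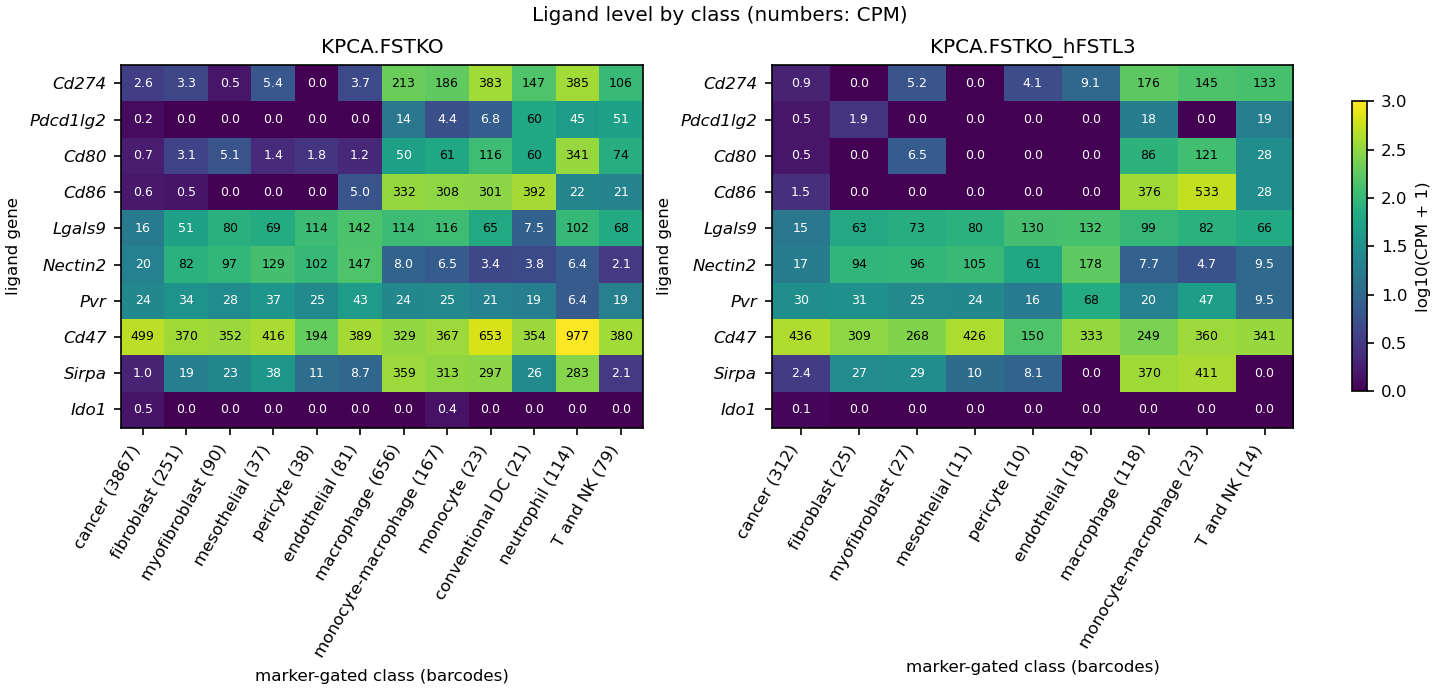
Level of each ligand (vertical axis) in each marker-gated class with at least 10 barcodes (horizontal axis, number of barcodes in brackets) in the KPCA.FSTKO library on the left and the KPCA.FSTKO_hFSTL3 library on the right. The colour is log10(CPM + 1) and the printed number is CPM. Cd274, Cd80, Cd86 and Sirpa are bright in the myeloid columns, Nectin2 in the stromal and endothelial columns, and Cd47 in all columns.

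The transcripts of PD-L1 were mainly in myeloid classes. In KPCA.FSTKO, Cd274 stood at 2.60 CPM (95% interval 2.31 to 2.92, 287 UMIs) in the cancer class, 2.53 (1.53 to 3.96) in the stromal class and 207 (198 to 215, 2293 UMIs) in macrophages. In KPCA.FSTKO_hFSTL3 it stood at 0.912 CPM (0.417 to 1.73, 9 UMIs) in the cancer class, 2.74 from 5 UMIs in the stromal class and 171 (155 to 187, 450 UMIs) in macrophages. The macrophage level was thus 79.5 times the cancer level in KPCA.FSTKO (70.3 to 90.2) and 187 times in KPCA.FSTKO_hFSTL3 (97.7 to 412). Although the cancer class held 77.6% of all UMIs in KPCA.FSTKO, it held 8.41% of those of Cd274, while all myeloid classes together held 77%.

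Among the classes of KPCA.FSTKO with at least 20 barcodes, Cd274 was highest in neutrophils (385 CPM, 121 UMIs) and monocytes (383 CPM, 112 UMIs), which did not differ beyond counting error. Both were above macrophages, at 213 CPM (203 to 223), and the neutrophil level was 1.86 times that of all macrophages (1.54 to 2.24). The neutrophil level rested on few barcodes: the top 12 of 114 held 61.2% of the UMIs, and the median barcode held none. In all macrophages the top 83 of 823 held 41.9%. The 7 barcodes with markers of mature dendritic cells, the migratory state that presents antigen, held 63 UMIs, or 1019 CPM (783 to 1304). Conventional dendritic cells stood at 147 CPM, but 23 of their 39 UMIs came from a single barcode. The T and NK class of KPCA.FSTKO stood at 106 CPM (78.4 to 139) and that of the other library at 133 (72.6 to 223), with macrophage markers at 88.7 and 85.4 CPM in it against 12222 and 11663 CPM in macrophages. No UMI was found in the erythroid class of KPCA.FSTKO.

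PD-L2 followed a narrower pattern. Pdcd1lg2 stood at 0.227 CPM (0.147 to 0.334, 25 UMIs) in the cancer class of KPCA.FSTKO, at 12.2 (10.2 to 14.4, 135 UMIs) in macrophages, and had no UMI in the stromal class, so that the interval of the macrophage to stroma ratio began at 24.4. In KPCA.FSTKO_hFSTL3 it stood at 0.506 CPM (5 UMIs) in the cancer class and 14.8 (10.5 to 20.2, 39 UMIs) in macrophages. The macrophage level was 53.7 times the cancer level in KPCA.FSTKO (34.9 to 86.0). The classes of KPCA.FSTKO with at least 20 barcodes were put in order of level, which leaves out the 7 mature dendritic barcodes. Among them, conventional dendritic cells (60.3 CPM), the T and NK class (50.7 CPM) and neutrophils (44.6 CPM) led. These 3 did not differ between neighbours beyond counting error. The T and NK level was 4.16 times that of macrophages (2.58 to 6.46). Within the macrophages of KPCA.FSTKO, barcodes that also passed the monocyte gate had 4.44 CPM from 11 UMIs against 14.4 CPM in the others. The others were not free of monocyte markers. Their median monocyte score was 22.2, above the cut of 20, but the gate also needs at least 3 distinct markers. The ratio between these parts was 0.309 (0.150 to 0.571). The same ratio for Cd274 was 0.873, from 186 and 213 CPM.

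The B7 pair CD80 and CD86 differed in neutrophils. Cd86 stood at 0.625 CPM (0.486 to 0.791, 69 UMIs) in the cancer class of KPCA.FSTKO, of which 16 UMIs came from a single barcode, and at 327 CPM (316 to 338, 3623 UMIs) in macrophages. In KPCA.FSTKO_hFSTL3 it stood at 1.52 CPM (0.850 to 2.51, 15 UMIs) and 401 (378 to 426, 1059 UMIs). Macrophages held 82.9% of all Cd86 UMIs in KPCA.FSTKO, the macrophage level was 523 times the cancer level (412 to 673), and only 2 UMIs fell in the stromal class. Conventional dendritic cells (392 CPM), macrophages (332), monocyte-macrophages (308) and monocytes (301) did not differ between neighbours beyond counting error. Neutrophils held 7 UMIs, or 22.3 CPM, so that the level in macrophages was 14.7 times theirs (7.11 to 36.5).

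Cd80 went the other way between these classes. It stood at 341 CPM (279 to 412, 107 UMIs) in the neutrophils of KPCA.FSTKO, 116 (80.5 to 163) in monocytes and 52.3 (48.1 to 56.7, 580 UMIs) in macrophages, the neutrophil level being 6.51 times that of macrophages (5.25 to 8.02). Neutrophils, 114 of 6777 barcodes, held 10.2% of its UMIs. The cancer class stood at 0.680 CPM (75 UMIs) and the stromal class at 3.33 (25 UMIs), a stromal excess of 4.91 times (2.99 to 7.80). In KPCA.FSTKO_hFSTL3, Cd80 stood at 0.506 CPM (5 UMIs) in the cancer class, 2.74 (5 UMIs) in the stromal class and 91.4 (80.2 to 104, 241 UMIs) in macrophages, and the 2 neutrophil barcodes were too few to describe. The macrophage markers stood at 417 CPM in the neutrophils of KPCA.FSTKO, with 11 of 12 found.

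**Figure D3:**
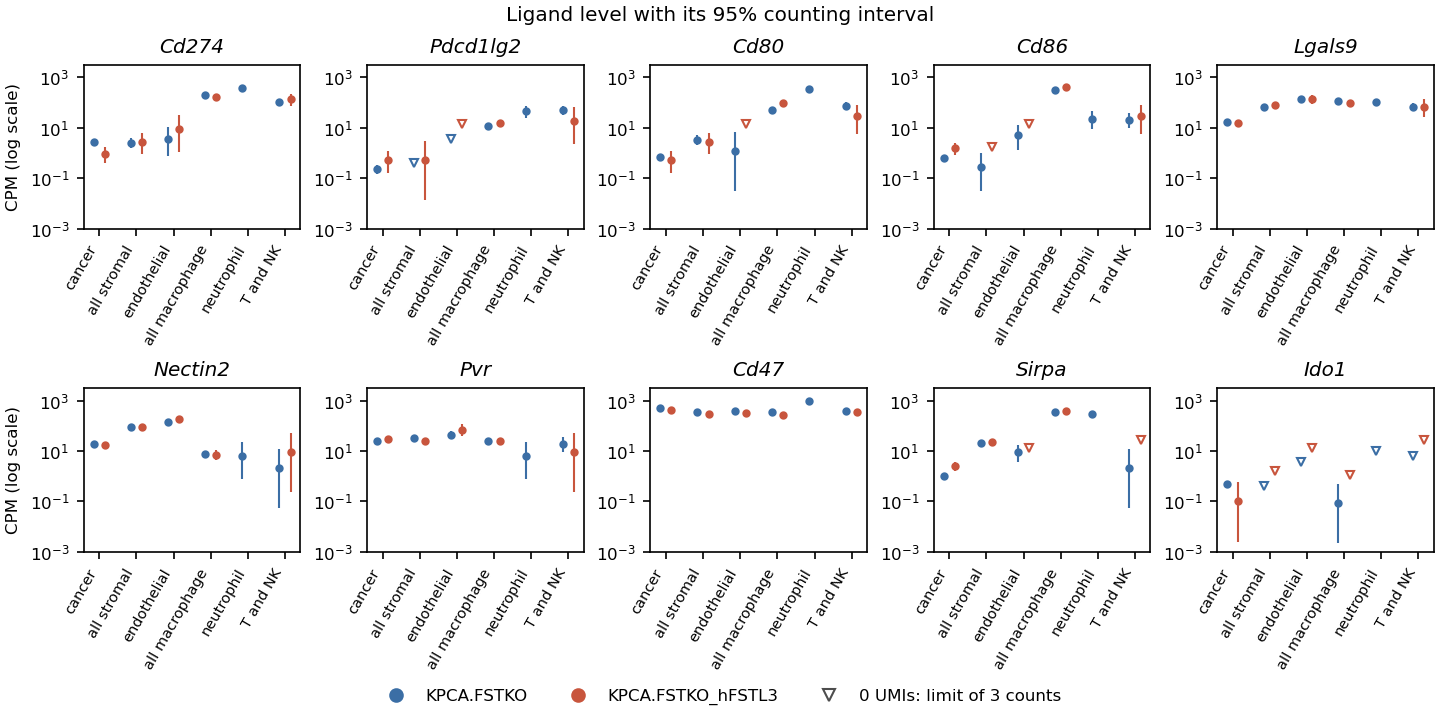
Level of each ligand (CPM, logarithmic vertical axis) in 6 classes, with blue for KPCA.FSTKO and red for KPCA.FSTKO_hFSTL3, bars for the exact 95% counting interval, and open triangles at the limit that 3 counts allow where no UMI was found. The neutrophils of KPCA.FSTKO_hFSTL3 (2 barcodes) are not drawn. For Cd274, Cd80, Cd86 and Sirpa the macrophage points of both libraries lie above the cancer points with no overlap of intervals.

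Galectin-9 and the TIGIT ligands were carried by non-myeloid classes as well. Lgals9 stood at 16.5 CPM (15.7 to 17.2, 1817 UMIs) in the cancer class of KPCA.FSTKO, 65.1 (59.4 to 71.1, 488 UMIs) in the stromal class, 142 (117 to 170, 114 UMIs) in endothelium and 114 (108 to 121, 1268 UMIs) in macrophages. In KPCA.FSTKO_hFSTL3 the same classes stood at 14.8, 79.0, 132 and 96.3 CPM. The stromal level was 3.95 times the cancer level in KPCA.FSTKO (3.57 to 4.37) and 5.34 times in KPCA.FSTKO_hFSTL3 (4.21 to 6.77), and the macrophage level 6.95 and 6.51 times. Within the stroma of KPCA.FSTKO, pericytes stood at 114 CPM and fibroblasts at 50.9. Conventional dendritic cells stood low, at 7.54 CPM from 2 UMIs, and mature dendritic cells had none.

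Nectin2 had its highest levels in stroma and endothelium, although most of its UMIs, 2178 of 3320 in KPCA.FSTKO, were in the cancer class. It stood at 19.7 CPM (18.9 to 20.6, 2178 UMIs) in the cancer class of KPCA.FSTKO, 92.1 (85.4 to 99.3, 691 UMIs) in the stromal class, 147 (121 to 176, 118 UMIs) in endothelium and 7.66 (6.12 to 9.48, 85 UMIs) in macrophages. In KPCA.FSTKO_hFSTL3 it stood at 17.0, 92.2, 178 and 7.2 CPM in the same order. Stroma was 4.67 times the cancer class (4.28 to 5.09) and 12 times the macrophages (9.58 to 15.2) in KPCA.FSTKO, and 5.42 (4.35 to 6.75) and 12.8 times (7.94 to 21.8) in KPCA.FSTKO_hFSTL3. Barcodes that passed the mesothelial gate, at 129 CPM (105 to 158), and endothelium did not differ beyond counting error. These 37 barcodes of KPCA.FSTKO had a median score of 8.11 for mesothelial and 185 for fibroblast markers. The latter is above the fibroblast cut of 60, so the class cannot be told apart from fibroblasts with some mesothelial markers. Of the 9 ligands with at least 100 UMIs over both classes of KPCA.FSTKO, Nectin2 alone stood at least 2 times lower in macrophages than in the cancer class, where 32.3% of all genes did. It was also the 1 of 8 that did so in KPCA.FSTKO_hFSTL3, against 25.8% of all genes.

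Pvr, whose product shares receptors with nectin-2, differed less between classes. It stood at 23.9 CPM (23.0 to 24.8, 2639 UMIs) in the cancer class of KPCA.FSTKO, 31.9 (27.9 to 36.2) in the stromal class, 43.5 (30.3 to 60.5) in endothelium and 24.3 (21.4 to 27.3) in macrophages. In KPCA.FSTKO_hFSTL3 it stood at 30.2 (26.8 to 33.8), 25.2, 68.4 (38.3 to 113) and 24.3 CPM. The macrophage to cancer ratio was 1.01 in KPCA.FSTKO (0.892 to 1.15) and 0.804 in KPCA.FSTKO_hFSTL3 (0.604 to 1.06). Endothelium was 1.82 times the cancer class in KPCA.FSTKO (1.26 to 2.54) and 2.27 times in KPCA.FSTKO_hFSTL3, also beyond counting error. Stroma was 1.33 times the cancer class in KPCA.FSTKO (1.16 to 1.52) and 0.836 times in the other library (0.599 to 1.14). Neutrophils, with 2 UMIs, were at 0.266 of the cancer level (0.0322 to 0.963). The cancer class held 75.6% of the Pvr UMIs, close to its 77.6% of all UMIs.

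Between the cancer class and macrophages, CD47 and its receptor SIRP alpha ran in opposite directions. Cd47 stood at 499 CPM (495 to 503, 55102 UMIs) in the cancer class of KPCA.FSTKO, with a UMI in 92.6% of its barcodes, at 357 in the stromal class, 389 in endothelium and 337 (327 to 348) in macrophages. In KPCA.FSTKO_hFSTL3 these levels were 436 (423 to 449), 289, 333 and 267 (248 to 287) CPM. The cancer class was thus 1.48 times the macrophages in KPCA.FSTKO and 1.63 times in KPCA.FSTKO_hFSTL3 (1.51 to 1.77). Among the classes of KPCA.FSTKO with at least 20 barcodes, neutrophils were higher still, at 977 CPM (871 to 1093), followed by monocytes at 653. The erythroid class was lowest of these at 86.2 (57.7 to 124).

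Sirpa was mainly in macrophages, monocytes and neutrophils. It stood at 1.01 CPM (0.835 to 1.22, 112 UMIs) in the cancer class of KPCA.FSTKO, 21.2 (18 to 24.8, 159 UMIs) in the stromal class and 349 (338 to 360, 3867 UMIs) in macrophages, of whose barcodes 92.1% had a UMI. In KPCA.FSTKO_hFSTL3 the levels were 2.43 (1.56 to 3.62, 24 UMIs), 22.5 and 376 (353 to 401, 993 UMIs) CPM. Macrophages held 81.9% of its UMIs in KPCA.FSTKO, at 344 times the cancer level (285 to 418), and were 16.4 and 16.7 times the stromal level in the 2 libraries. The stromal level was itself 20.9 times the cancer level in KPCA.FSTKO (16.3 to 26.9). Neutrophils (283 CPM) and monocytes (297 CPM) stood near macrophages, whereas conventional dendritic cells stood at 26.4 CPM from 7 UMIs and the T and NK class had 1 UMI.

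Ido1 had few transcripts, with 56 UMIs in all in KPCA.FSTKO and 5 in the other library. In KPCA.FSTKO, 52 of them (92.9%) were in the cancer class, at 0.471 CPM (0.352 to 0.618) in 41 barcodes, and 1 was in monocyte-macrophages. The cancer class held 77.6% of all UMIs. Its Ido1 level was not above that of monocyte-macrophages (0.404 CPM) beyond counting error. Dendritic cells, a known source of the enzyme, had none, which with 21 conventional dendritic barcodes allows a level of up to 13.9 CPM. The related gene Ido2 had 499 UMIs in the cancer class, or 4.52 CPM (4.13 to 4.94).

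With a rule of size, a gene counted as higher in a class when it had at least 100 UMIs over the classes compared and stood at least 2 times higher. In KPCA.FSTKO, 6 of the 9 ligands with enough UMIs were higher in macrophages than in the cancer class (Cd274, Pdcd1lg2, Cd80, Cd86, Lgals9 and Sirpa), where 16.1% of 13511 genes were, and 5 were at least 10 times higher, where 5.67% of genes were. The median log2 ratio was 5.75 for the ligands and -0.43 for all genes. Between stroma and the cancer class, 4 of 7 were higher in stroma (Cd80, Lgals9, Nectin2 and Sirpa), against 14.6% of all genes. In KPCA.FSTKO_hFSTL3, 5 of 8 were at least 2 times higher in macrophages than in the cancer class against 17.5% of all genes, 4 were at least 10 times higher against 5.29%, and 2 of 4 were higher in stroma against 12.3%. The ligands were chosen by name for their known role, with earlier results of these data known, so these shares describe the genes and are not a test.

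**Figure D4:**
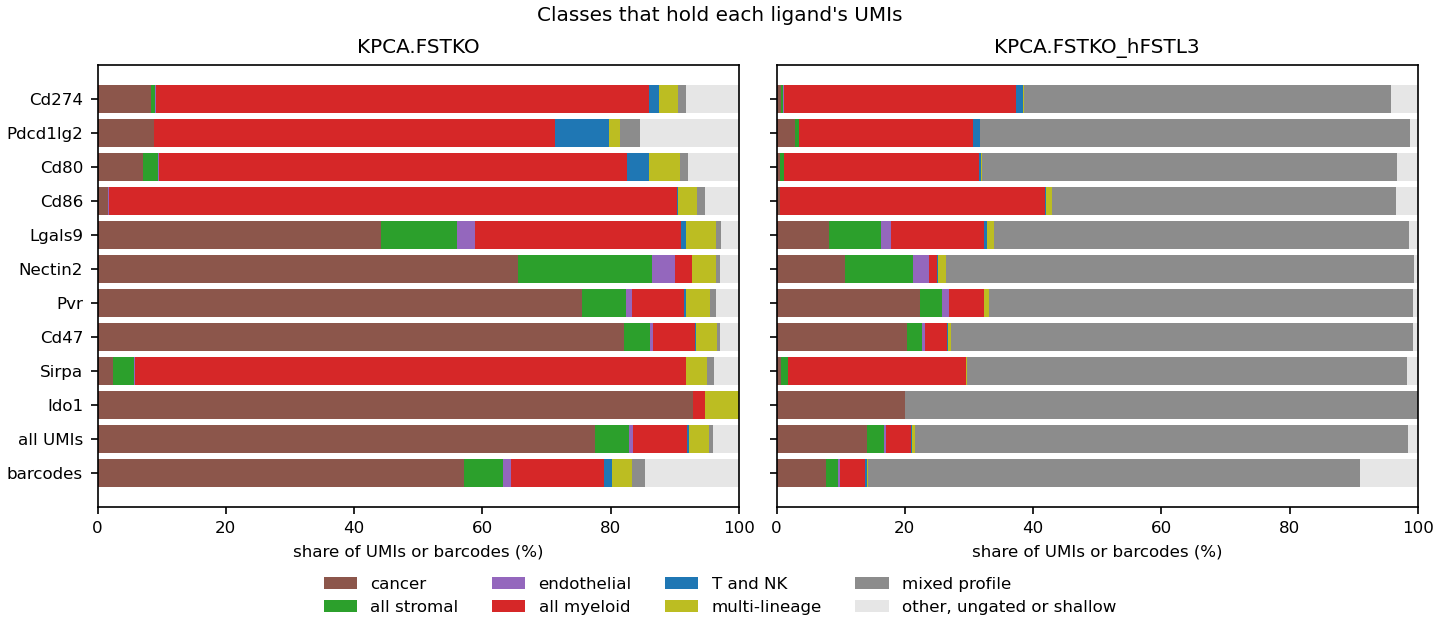
Percent of all UMIs of each ligand (horizontal axis) that fell in each class (colour), for KPCA.FSTKO on the left and KPCA.FSTKO_hFSTL3 on the right. In KPCA.FSTKO macrophages held 81.9% of Sirpa and 82.9% of Cd86, and the cancer class 82.1% of Cd47; in KPCA.FSTKO_hFSTL3 the mixed profile held between 53.7% and 72.9% of every ligand with over 100 UMIs.

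Depth differed between classes, with medians of 27031 UMIs in the cancer class, 12792 in macrophages and 2619.5 in neutrophils of KPCA.FSTKO, so each barcode was also thinned to 1000 UMIs. A UMI of Cd274 then remained in 0.336% of cancer barcodes, 16.5% of macrophages (14.1 to 19.2) and 24.6% of neutrophils (17.0 to 33.5), against 5.30%, 71.0% and 36.8% before thinning. At 3000 UMIs, which left 36 of the 114 neutrophils, it remained in 37.6% of macrophages and 19.4% of neutrophils (8.19 to 36.0), so the order of these classes by share changed with depth. In KPCA.FSTKO_hFSTL3 it remained in 12.8% of macrophages and in 0 of 312 cancer barcodes, for a share with a UMI at this depth of up to 1.18%, while 9 of them (2.88%) had a UMI as deposited. The erythroid class of KPCA.FSTKO, which should lack the gene, held it in 0 of 67 barcodes. That allows a share of up to 5.36%, so it cannot set a background for the lower share of the cancer class. Cd86 remained in 25.2% of macrophages and no neutrophil, Cd80 in 5.35% and 26.3%, Sirpa in 33.9% and 27.2%, and Cd47 in 27.8% and 50.9%. Nectin2 remained in 7.45% of stromal, 9.88% of endothelial and 2.22% of cancer barcodes. Leaving Cd47 aside, 93.1% of cancer, 80.8% of stromal, 40.4% of neutrophil and 35.2% of macrophage barcodes of KPCA.FSTKO had none of the other ligands at this depth.

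Ligands were also found in the same barcode. At 1000 UMIs, 136 macrophage barcodes of KPCA.FSTKO had Cd274 and 207 had Cd86, and 35 had both, so Cd86 was in 25.7% of Cd274 barcodes and in 25.2% of the class. In KPCA.FSTKO_hFSTL3, 6 of 18 Cd274 barcodes (33.3%) had Cd86, against 28.4% of the class. As deposited, with no thinning, the share was 85.6% and 94.2%, against 80.4% and 89.4% of the class. Cd86 was in 17 of the 44 Cd80 barcodes of KPCA.FSTKO, or 38.6%. In neutrophils, 28 barcodes had Cd274, 30 had Cd80 and 4 had both. These are sparse counts and no association was tested.

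The levels were then set side by side between the libraries. The classes of KPCA.FSTKO_hFSTL3 held more RNA of pancreatic acinar markers, at 882 (cancer), 1254 (macrophage) and 980 CPM (stromal). In KPCA.FSTKO these sums were 57.2, 107 and 151 CPM. The part of such foreign RNA in the ratios was not tested. In macrophages, 0 of the 9 ligands with at least 100 UMIs over both libraries differed by at least 2 times, against 3.25% of all genes, and with KPCA.FSTKO_hFSTL3 divided by KPCA.FSTKO the median log2 ratio was 0.00 for the ligands and 0.10 for all genes. The farthest was Cd80, at 52.3 and 91.4 CPM, a ratio of 1.75 (1.5 to 2.03). Cd274 had a ratio of 0.825 (0.744 to 0.913), Cd47 of 0.791 (0.729 to 0.858) and Pvr of 1.00 (0.749 to 1.32). Cd86, at 1.23 (1.15 to 1.32), Sirpa, at 1.08 (1.01 to 1.16), and Pdcd1lg2, at 1.21 (0.828 to 1.75), stood higher on the CPM scale and lower with TMM scaling, which shifted all macrophage log2 ratios by -0.32. In stroma, 0 of 5 ligands differed by at least 2 times, against 3.44% of all genes, and Nectin2 had a ratio of 1.00 (0.840 to 1.19).

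In the cancer class, 2 of 6 ligands passed the size rule, where 10.1% of all genes did, and both rest on few UMIs in the small KPCA.FSTKO_hFSTL3 class. Cd274 was lower, at 0.912 against 2.60 CPM, a ratio of 0.351 (0.159 to 0.675) or -1.51 on the log2 scale. Sirpa was higher, at 2.43 against 1.01 CPM, a ratio of 2.40 (1.47 to 3.75) or 1.26 on the log2 scale. Both depend on which barcodes count as cancer: when 4 lineages in place of 3 were needed for a mixed profile, the log2 ratio was -0.36 for Cd274 and 2.70 for Sirpa, and when the mixed profile was counted as cancer it was 2.02 and 4.77. With classes taken from Seurat clusters it was -1.62 for Cd274 and 0.33 for Sirpa. Pvr was 1.26 times higher (1.12 to 1.42), Cd47 was at 0.873 (0.846 to 0.90), Lgals9 at 0.898 and Nectin2 at 0.862 of the KPCA.FSTKO level.

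**Figure D5:**
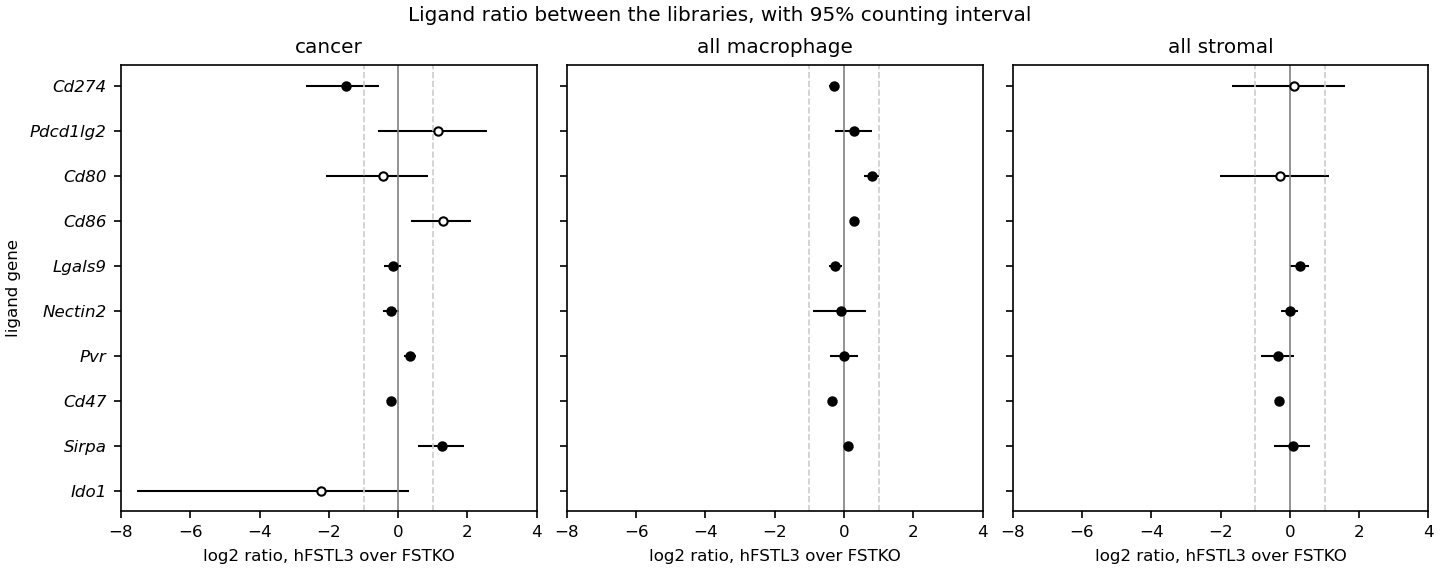
KPCA.FSTKO_hFSTL3 divided by KPCA.FSTKO on the log2 scale (horizontal axis) for each ligand in the cancer, macrophage and stromal classes, with bars for the 95% counting interval and dashed lines at 2 times. Filled points had at least 100 UMIs over both libraries, and ligands without a UMI in a library have no point; Cd274 and Sirpa in the cancer class are the filled points beyond the dashed lines.

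Macrophage RNA in cancer barcodes was measured beside these low levels. The 12 macrophage markers were all found in the cancer class, at 49.6 CPM summed in KPCA.FSTKO and 83.0 in KPCA.FSTKO_hFSTL3. In the 1552 cancer barcodes of KPCA.FSTKO without a macrophage-marker UMI, Cd274 stood at 2.30 CPM (1.85 to 2.84, 88 UMIs), against 2.76 (2.39 to 3.17) in the 2315 with one, and Sirpa at 0.418 (0.239 to 0.679, 16 UMIs) against 1.33 (1.08 to 1.63). Cd274 had 4.16 UMIs per Cd86 UMI (3.19 to 5.49) in the cancer class of KPCA.FSTKO and 0.633 (0.600 to 0.667) in its macrophages. In KPCA.FSTKO_hFSTL3 it was 0.600 (0.232 to 1.46) in the cancer class, 0.425 (0.380 to 0.475) in macrophages and 0.516 in the mixed profile. There, 106 cancer barcodes without a macrophage-marker UMI held 1 UMI of Cd274 and 2 of Sirpa. The part of such RNA in the difference between the libraries was not tested.

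The mixed profile was described apart from the classes. Its CPM in KPCA.FSTKO_hFSTL3 was 14.0 for Cd274 (13.1 to 15.1), 27.2 for Cd86, 47.3 for Sirpa, 21.4 for Nectin2 and 285 for Cd47. The levels of Cd274, Cd86 and Sirpa lay between those of the cancer and macrophage classes, and that of Nectin2 between the cancer and stromal classes. Pvr did not lie between these classes: at 16.4 CPM it was below its cancer (30.2), stromal (25.2) and macrophage (24.3) levels.

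The receptors of the ligands were read from a list of 8. In the T and NK class of KPCA.FSTKO, Pdcd1 (PD-1) stood at 277 CPM (231 to 328, 131 UMIs), Ctla4 at 760 (684 to 843), Cd28 at 154, Cd226 at 323, Cd96 at 95.1 and Tigit at 52.8. In the 14 T and NK barcodes of KPCA.FSTKO_hFSTL3, Pdcd1 stood at 85.4 CPM (39.0 to 162, 9 UMIs) and Ctla4 at 1262, with 60 of its 133 UMIs in a single barcode. Havcr2, which encodes TIM-3, was also in macrophages (68.1 CPM), conventional dendritic cells (181 CPM) and, with 2507 UMIs, the cancer class (22.7 CPM). Pvrig had no UMI in the T and NK class of either library, and no receptor passed the size rule between libraries in the 3 classes compared, in which 2, 1 and 0 had enough UMIs.

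Other ligands of the pathway were read from a list of 16. In KPCA.FSTKO, Vsir, which encodes the checkpoint VISTA, was in macrophages (161 CPM) and neutrophils (197 CPM), and Cd200 in endothelium (445 CPM). Cd276 (B7-H3) was in endothelium (72.1 CPM), stroma (32.9 CPM) and the cancer class (23.4 CPM). Between the libraries, 3 of the 7 with enough UMIs passed the size rule in the cancer class, where 10.1% of all genes did: Vtcn1 (B7-H4) stood at 2.28 and 7.70 CPM, a ratio of 3.37 (2.57 to 4.37), Fgl1 at a ratio of 0.315 (0.114 to 0.697) and Tnfsf9, the ligand of 4-1BB, at 0.477 (0.399 to 0.565). In macrophages 1 of 7 did, Icosl at 2.21 (1.47 to 3.29), against 3.25% of all genes, and in stroma 1 of 4, Tnfsf9 at 0.347 (0.186 to 0.599), against 3.44%. Fgl1 rested on 6 UMIs in the cancer class of KPCA.FSTKO_hFSTL3. Calls on the genes of this and the other lists were not repeated with other rules for the mixed profile or with Seurat clusters.

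The same shares of all genes apply to the next lists. Of 8 tryptophan and kynurenine genes, 1 of 5 with enough UMIs passed the size rule in the cancer class, 0 of 4 did in macrophages and 0 of 2 in stroma. The 1 gene was Ido2 at 0.314 (0.170 to 0.531), with 14 UMIs in the cancer class of KPCA.FSTKO_hFSTL3. Of 10 interferon-gamma response genes, Cxcl9 passed in the cancer class (1 of 9), at 2.12 and 0.810 CPM from 234 and 8 UMIs, and 0 of 9 passed in macrophages, where the median log2 ratio was 0.28. In stroma 2 of 8 passed: Cxcl9 at 8.27 and 49.9 CPM and Cxcl10 at 22.7 and 105 CPM. In KPCA.FSTKO_hFSTL3, 63 of the 91 stromal Cxcl9 UMIs and 145 of the 192 Cxcl10 UMIs came from a single barcode each.

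The genes whose levels ran most alike to each ligand were sought among 14335 genes over 18 points, which were the classes with at least 20 barcodes in either library. Pearson's r of log2(CPM + 1) was 0.97 for Cd274 with Ptpn6, 0.99 for Cd86 with Cysltr1, 0.94 for Sirpa with the macrophage marker Csf1r, 0.98 for Nectin2 with Lmcd1 and 0.97 for Pvr with Tmem242. For Cd80 it was 0.97 with Gm36043, for Pdcd1lg2 0.93 with Insyn2b, for Lgals9 0.93 with Fry and for Cd47 0.90 with Prpf39. Among the ligands, Cd274 ran with Cd80 (0.94) and Cd86 (0.91) and opposite to Nectin2 (-0.69). The points share 2 libraries and differ in depth, so these values describe likeness only.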

How the data were processed

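The authors pooled 4 tumors per genotype, made 1 single-cell 3′ library of each with a 10x Genomics kit and aligned reads to the mm10 mouse reference (GRCm38). Cell Ranger is given as version 3.1.0 in the submitters' processing notes and as 7.2.0 in the matrix headers. The authors deposited raw UMI counts per gene and barcode, not normalized. The filters of the study were then applied (mitochondrial share under 20%, more than 200 and fewer than 8000 genes).

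Each barcode with at least 1000 UMIs was scored by the UMIs of 16 marker lists per 10000 UMIs. It entered a class when it held at least 3 markers of the list and its score reached a cut set from the marker scores alone. Barcodes over lower cuts for at least 3 of 5 lineages (cancer, fibroblast, macrophage, erythroid, pancreatic acinar) were the mixed profile. Mesothelial barcodes were counted as stromal, although first planned with the cancer lineage, a choice made after marker scores were seen. In KPCA.FSTKO, 439 barcodes lay within 25% of the cancer cut and 93 within 25% of the macrophage cut, and in KPCA.FSTKO_hFSTL3, 201 and 286. Doublets were kept. Scrublet called 90 barcodes (1.33%) of the KPCA.FSTKO library. It called 1 of the other, where it did not work.

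Levels are CPM with exact Poisson 95% intervals, ratios have conditional binomial intervals, shares Clopper-Pearson intervals, and 0 counts were set at a floor of 3 counts. "Beyond counting error" means that the interval of a ratio left out 1. The self-test on simulated counts recovered most of the changed genes it was given. Those genes had many UMIs, changes larger than the 2 times of the size rule, and counting error alone. The self-test therefore does not cover calls that rest on few UMIs. With 1 library per genotype no p-value was computed. Named genes are the 10 ligands, 4 pathway lists and the genes most alike to each ligand, of which the first is named in the text. Ligands, marker lists and pathway lists were chosen with earlier results of these data known. Coordinates follow the GENCODE annotation of GRCm38. Alternatives changed the filters, gates, classes (Seurat 5.3.0 in R 4.3.3), doublets (scanpy 1.11.5), scaling (TMM of edgeR 4.0.16, for scaling alone), thinning and thresholds. Sums and intervals came from scipy 1.17.1 with numpy 2.4.6, tables from pandas 2.3.3 and figures from matplotlib 3.10.9, under Python 3.11.15.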

Additional observations from a re-analysis of the deposited data

Results flagged for a closer look

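Lgals9 stood higher in KPCA.FSTKO_hFSTL3 in stroma and lower in macrophages. Its ratio of KPCA.FSTKO_hFSTL3 over KPCA.FSTKO was 1.21 in stroma and 0.842 in macrophages, with counting intervals of 1.00 to 1.46 and 0.733 to 0.964. The classes within them were less clear: the ratio was 1.24 in fibroblasts (0.835 to 1.80), 0.908 in myofibroblasts (0.657 to 1.24) and 0.871 in macrophages without the monocyte-macrophages (0.749 to 1.01), each with an interval that holds 1. Fibroblasts made up 251 of the 416 stromal barcodes of KPCA.FSTKO and 25 of 73 in the other library, and the part of this make-up in the ratio was not tested. With TMM scaling the log2 ratios were 0.09 and -0.57. The difference between the classes was not tested, since each rests on 1 library per genotype.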

How the results depend on the processing

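No paired analysis was possible because each genotype was 1 library. The counts of ligands higher in macrophages or in stroma than in the cancer class stayed within 1.5 times under all alternatives run. In the cancer class, the 2 ligands past the size rule between libraries became 1 with no filter on barcodes, with a mitochondrial share under 10%, with classes from Seurat clusters or with Scrublet doublets left out. They became 5 with a minimum of 20 UMIs, and 5 with the mixed profile counted as cancer, a setting chosen after seeing the data. In that setting the log2 ratio of Cd274 between libraries in the cancer class turned from -1.51 to 2.02, since 3096 barcodes then joined 312. In macrophages the count of ligands went from 0 to 1 at a ratio of at least 1.5. At that ratio the genes of the pathway lists past the rule went from 5 to 10 in the cancer class, from 1 to 5 in macrophages and from 3 to 6 in stroma. The share of Cd274 macrophages with Cd86 went from 25.7% to 85.6% and from 33.3% to 94.2% as deposited, with no thinning. Cd86 was then in 80.4% and 89.4% of all macrophage barcodes. Of the single class ratios recomputed, 359 moved by less than their interval and 48 by more, 18 of these with the mixed profile counted as cancer, and of the library ratios 306 did and 30 did not, beside the reversed Cd274. Few UMIs limit the KPCA.FSTKO_hFSTL3 values: Cd274, Cd80 and Pdcd1lg2 rest on 9, 5 and 5 UMIs in its cancer class and on 5, 5 and 1 in its stroma. Neutrophils could not be compared between libraries.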
